A study of Ovis aries with 16 samples.

Results

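Fetal sheep that had gone through 1 episode of hypoxia, without ketamine, were compared with normoxic fetuses through the RNA of their hippocampus. The comparison took the 8 arrays labeled as controls without ketamine, 5 of hypoxia control (HC) and 3 of normoxia control (NC), out of 16 hippocampal arrays in the study, and left none of them out. The fetuses were in late gestation and carried chronic catheters, and each gave 1 array. The paper reports that most were twins. In HC the ewe breathed a gas low in oxygen for 30 min and normoxia followed for 23.5 h. In NC the same times passed in normoxia, and in both groups the tissue was collected 24 h after the onset. The other 8 arrays came from fetuses that received ketamine at 3 mg/kg intravenously before normoxia (NK, 4 arrays) or before hypoxia (HK, 4 arrays). They contribute to the estimate of spread, and the same comparison under ketamine is set beside the results. The labels give RNA integrity as a range of 7.7 to 9.2 over all samples, not per array.

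RNA labeled with 1 dye was hybridized to an Agilent ovine array. The arrays lay on 2 slides of 8, with replicates 1 and 2 of NC and HC on the first slide and NC replicate 3 with HC replicates 3 to 5 on the second. A level is the log2 intensity of a probe relative to the 75th percentile of its array, so a level of 0 lies at that percentile. Probes differ in brightness, and levels are compared between arrays and not between genes. Between 76.7% and 82.6% of the spots of an array were well above background, meaning over 13 SD of background. Of 15008 probes, 12543 reached this on at least 3 of the 16 arrays and were tested. Only 1270 of those carry a gene name, for 825 genes, and each gene is read from its brightest probe. The criterion is an unadjusted p under 0.05 in limma's moderated test, two-sided. Values of single arrays are given in replicate order. With 5 arrays against 3, the two-sided exact permutation test has 56 arrangements and its smallest possible p is 0.036.

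In the hippocampus, excitatory neurons signal through glutamate, which opens AMPA receptors, assembled from GRIA subunits, and NMDA receptors, which all contain GRIN1 and which ketamine blocks. Low oxygen stabilizes hypoxia-inducible factors, which pair with ARNT and switch on genes of glucose uptake, glycolysis and vessel growth. Microglia, vessel walls and incoming leukocytes carry the innate response of the brain, in which toll-like receptors lead to the release of cytokines and chemokines.

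The label of hippocampus was checked against neuronal genes, and HC replicate 5 stood apart. NEUROD1, a transcription factor of hippocampal granule neurons, had levels of 2.00, 1.20 and 1.47 in NC and of 1.1, 1.32, 1.70, 1.35 and -5.91 in HC. The neuropeptide somatostatin, SST, had levels of 4.72, 4.67 and 4.96 in NC and of 5.01, 4.51, 4.20, 5.04 and 1.86 in HC. HC replicates 1 to 4 were thus close to NC, while NEUROD1 was 155-fold and SST 7.10-fold lower on HC replicate 5 than on their mean. Neither gene passed the criterion, at -1.64 for NEUROD1 and -0.66 for SST, and without this array the differences were -0.19 and -0.09. A few more genes, singled out after their values were seen, were low on the same array: the somatostatin receptor SSTR2 by 4.92-fold, cyclooxygenase 2 (PTGS2) by 19.4-fold, the calcium/calmodulin-dependent kinase CAMK2 by 3.01-fold and the neuropeptide Y receptor NPY1R by 2.96-fold. HC replicate 5 alone was the lowest of all 16 arrays, by over 1 on the log2 scale, at 71 probes, against 5 to 23 probes for each of the others. Its share of spots well above background, 79.6%, lay within the range of the other arrays. The part of this array in the results was not tested as a cause, and the main results are given with and without it.

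Hypoxia was followed by a rise of innate immune genes that was large and uneven between fetuses, and by a smaller decrease of other genes. Of the 825 named genes, 70 were raised (8.48%) and 48 lowered (5.82%), while all probes tested were tilted the other way, with 570 raised (4.54%) and 786 lowered (6.27%). The raised genes had a median difference of 1.1 and reached 4.70, and 17 of them had a measured difference of at least 2, or 12 with genes not well above background in NC at their bounds. The lowered genes had a median of -0.61, 3 fell by at least 1 and 0 by at least 2. Every HC array was above every NC array for 37 of the raised genes (4.48% of those tested), and below for 29 of the lowered ones (3.52%), or for 285 raised (2.27%) and 464 lowered (3.7%) among all probes. Only 2 probes passed adjustment over all probes, both at an adjusted p of 0.0139. Without HC replicate 5, 70 genes were raised (8.48%), 61 of them the same, and 34 lowered (4.12%), 28 of them the same, and 41 probes passed adjustment. Background correction by normexp gave 403 raised and 1257 lowered probes with 30 spots left out of its fit, a choice made after seeing the data. With all spots it gave 311 raised and 274 lowered probes. There 24 of the 41 lowered results followed through the alternatives, which include a gene not named in this text, stood above 0. The median over all named genes was 0.02, or 0.00 with the 38 genes that were not well above background in 1 of the groups at their bounds, and that of the raised genes was then 0.89.

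Glutamate receptor subunits were lower in HC, and how far they fell depended on HC replicate 5. GRIN1, the subunit that every NMDA receptor needs, had levels of -0.92, -1.05 and -1.04 in NC and of -1.68, -2.17, -1.22, -1.89 and -3.16 in HC. The NC arrays lay almost on top of each other, all HC arrays were below them, replicate 3 was nearest and replicate 5 farthest. The other normoxic fetuses, NK, had levels of -1.05, -1.85, -1.11 and -1.52, which overlap those of HC. GRIN1 fell by 1.02 (SE 0.40), or 2.03-fold, with an adjusted p of 0.373 and an exact permutation p of 0.036, and its other probe fell by 1.00. Any gene whose groups do not overlap has this exact p, and GRIN1 was named among the most lowered genes on that condition. The sequences of the 5 probes are printed because the lowered receptors are close relatives, and no pair of these probes shares a run of over 7 bases.
GRIN1: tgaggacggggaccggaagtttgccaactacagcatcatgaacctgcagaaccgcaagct
GRIA1: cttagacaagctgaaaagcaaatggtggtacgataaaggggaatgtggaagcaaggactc
GRIA2: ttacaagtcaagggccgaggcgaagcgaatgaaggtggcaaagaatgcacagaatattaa
GRIA3: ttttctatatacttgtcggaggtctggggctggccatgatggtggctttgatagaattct
GRIA4: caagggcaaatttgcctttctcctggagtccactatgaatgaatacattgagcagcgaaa

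The AMPA subunits GRIA1 to GRIA4 also fell, by less. GRIA1 had levels of 0.57, 0.53 and 0.20 in NC and of -0.07, -0.26, 0.46, -0.24 and -0.99 in HC, so that HC replicate 3 lay among the NC arrays. It fell by 0.65 (SE 0.26), with an exact permutation p of 0.0714, and its other probe fell by 0.66. GRIA2, the subunit that keeps AMPA receptors largely closed to calcium, had levels of 2.45, 2.20 and 2.22 in NC and of 2.06, 1.96, 2.04, 1.94 and 1.35 in HC. The groups did not overlap, and GRIA2 fell by 0.42 (SE 0.17). GRIA4 had levels of -2.60, -2.75 and -2.71 in NC and of -2.90, -3.29, -2.99, -2.95 and -3.06 in HC. Here replicate 2 was the lowest, the groups did not overlap, and GRIA4 fell by 0.35 (SE 0.15), while its other probe, at -0.31, did not pass. GRIA3, chosen after its values were seen, fell by 0.46 (SE 0.21) with overlapping groups and an exact permutation p of 0.179. The sixth tested receptor, GRM5, a metabotropic one, stood at -0.28 and did not pass.

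Without HC replicate 5, GRIA4 alone still passed, at -0.34, while GRIN1 was at -0.74, GRIA1 at -0.46, GRIA2 at -0.29 and GRIA3 at -0.35, still lower but short of the criterion. Other single arrays also carried a call. GRIN1 did not pass without NC replicate 1 (-0.98), GRIA1 without NC replicate 1 (-0.59) or 2 (-0.61), and GRIA2 without NC replicate 1 (-0.34). The call of GRIA4 ended without HC replicate 2 (-0.29) or NC replicate 1 (-0.31) or 3 (-0.36), and that of GRIA3 without HC replicate 2 (-0.45) or 4 (-0.41) or NC replicate 1 (-0.48) or 2 (-0.36). CAMK2, which acts beneath these receptors, fell by 0.68, and HOMER, a scaffold of the synapse, by 0.57, both chosen after their values were seen. Without HC replicate 5 CAMK2 was at -0.36, still past the criterion, and HOMER at -0.43, no longer past it. With only the NC and HC arrays in the fit, the calls of GRIA1, GRIA3 and CAMK2 ended. In bulk tissue fewer neurons and less RNA per neuron cannot be told apart. Of 21 neuronal markers 6 could be tested, and their mean level was 1.84, 1.57 and 1.66 in NC and 1.62, 1.24, 1.54, 1.50 and -0.88 in HC, with SST the brightest, while SLC17A7, RBFOX3 and SNAP25 had no named probe. Their median difference was -0.66 with 3 lowered, GRIN1, GRIA1 and GRIA2, and -0.24 with 0 lowered without HC replicate 5.

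**Figure D1:**
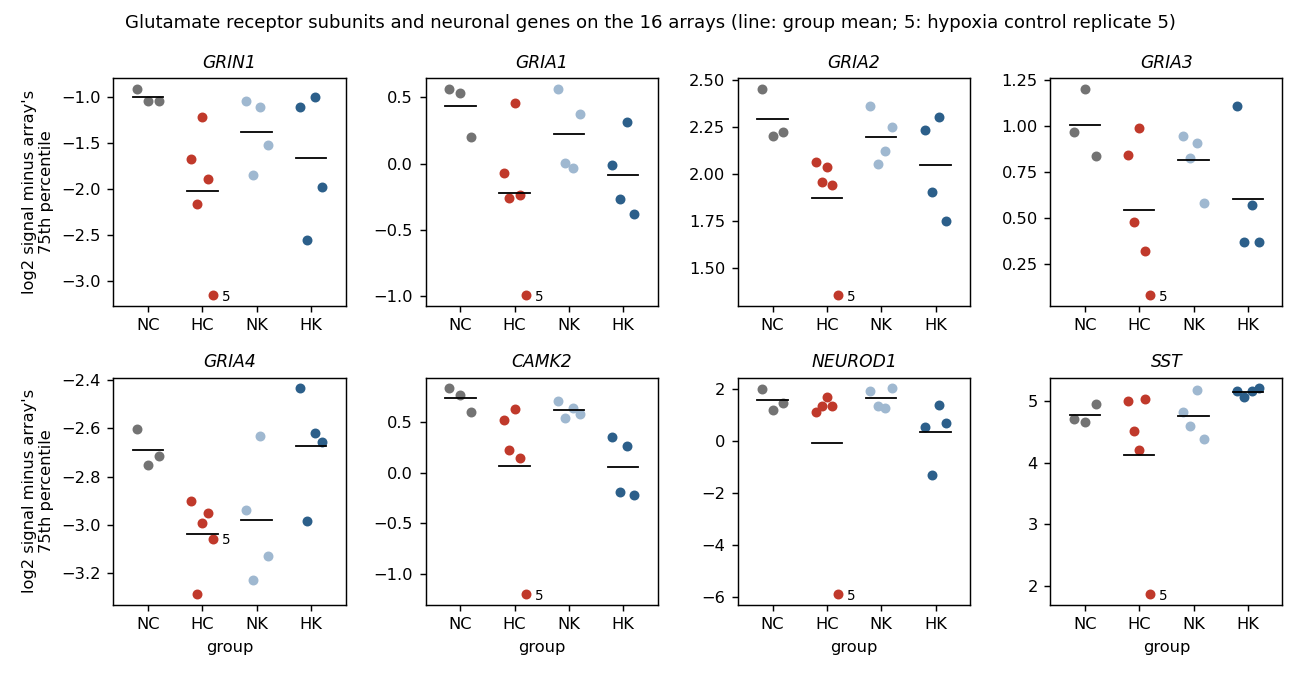
Levels (log2 relative to the 75th percentile of the array) of GRIN1, GRIA1 to GRIA4, CAMK2, NEUROD1 and SST on the 16 arrays, 1 point per array and a line at the mean of each group, with HC replicate 5 marked by its number. HC replicate 5 is the lowest HC array for each gene but GRIA4, reaching -5.91 for NEUROD1 and 1.86 for SST, while GRIN1 is below all NC arrays on each of the 5 HC arrays.

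AHR, ARNT and HK1 fell in the list of oxygen sensing and the hypoxia response, while most of its genes did not pass. AHR, a transcription factor that binds small ligands and pairs with ARNT, had levels of -5.21, -4.93 and -4.82 in NC and of -5.55, -6.07, -5.78, -5.53 and -5.78 in HC. All HC arrays were lower, with similar spread in both groups. AHR fell by 0.76 (SE 0.16), or 1.69-fold, its adjusted p was 0.14, and without HC replicate 5 it stood at -0.75. ARNT, the shared partner of AHR and the hypoxia-inducible factors, had levels of -5.67, -5.50 and -5.71 in NC and of -6.01, -6.23, -5.96, -6.29 and -6.36 in HC. No array crossed over, and ARNT fell by 0.54 (SE 0.13), or by 0.50 without HC replicate 5, while its other probe, at -0.62 (SE 0.32) with overlapping groups, did not pass. Hexokinase 1 (HK1), which phosphorylates glucose as it enters the cell, had levels of 0.69, 0.67 and 0.56 in NC and of 0.04, 0.18, 0.39, -0.15 and -0.35 in HC. HC replicate 3 came closest to NC and replicate 5 was the lowest. HK1 fell by 0.61 (SE 0.21), and by 0.52 without HC replicate 5. Of the 17 genes tested under the names in this list, which does not hold GLUT-1 by that name, the neuronal glucose transporter SLC2A3 alone rose, by 1.13 (SE 0.29), with levels of 3.38, 3.14 and 3.44 in NC and of 5.11, 4.57, 4.55, 4.39 and 3.61 in HC. HIF1A, EPAS1, VEGFA, LDHA and ALDOA did not pass.

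NFAT5, JAG1, TGF-A, TRAF3, THRB and CLOCK, which no single list joins, were lowered too. NFAT5, a factor of the response to osmotic stress, had levels of -5.21, -5.05 and -5.13 in NC and of -5.80, -6.19, -5.90, -6.28 and -6.39 in HC. The probe was dim, being well above background on 3 of the HC arrays, and the groups were far apart relative to their spread. NFAT5 fell by 0.98 (SE 0.38), by 0.91 without HC replicate 5, and did not pass without NC replicate 2 (-0.94). JAG1, a ligand of Notch receptors, had levels of -5.95, -5.89 and -5.08 in NC and of -6.25, -6.83, -6.28, -6.82 and -6.28 in HC. NC replicate 3 was the highest by a wide margin, and JAG1 fell by 0.85 (SE 0.25), but its other probe, at -0.27, did not pass, and the mean of both was -0.56. TGF-A, transforming growth factor alpha, had levels of -5.77, -5.21 and -5.22 in NC and of -6.77, -5.97, -5.83, -6.91 and -7.10 in HC. HC replicates 2 and 3 lay near NC and the others well below. The probes of JAG1 and TGF-A were dim too, each being well above background on 3 of the HC arrays. TGF-A fell by 1.12 (SE 0.45), and by 1.20 at its other probe. The call did not hold without HC replicate 5 (-0.97) or 4 (-1.02), or without NC replicate 2 (-1.02) or 3 (-1.03). TRAF3, an adaptor beneath toll-like and tumor necrosis factor receptors, fell by 0.61 (SE 0.13) and by 0.57 without HC replicate 5. The thyroid hormone receptor THRB fell by 0.56 (SE 0.18), by 0.49 without HC replicate 5, and did not pass without NC replicate 2 (-0.45). For TRAF3 and THRB every HC array was below every NC array. CLOCK, a factor of the circadian rhythm chosen after its values were seen, fell by 0.51 and was at -0.38, short of the criterion, without HC replicate 5. Its call also ended without HC replicate 2 (-0.49) or NC replicate 1 (-0.50), 2 (-0.49) or 3 (-0.52).

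PTGS1, PTGFR and ADRB1 were lower as well, put together here after their calls were known, while PTGS2, at -1.20, did not pass. Without HC replicate 5 PTGS2 was at -0.35. PTGS1, the constitutive cyclooxygenase, had levels of -0.25, -0.15 and 0.30 in NC and of -1.00, -0.44, -0.62, -0.38 and -1.27 in HC. HC replicates 1 and 5 were the lowest, and PTGS1 fell by 0.71 (SE 0.21), or by 0.58 without HC replicate 5. PTGFR, the receptor of prostaglandin F2 alpha, had levels of -4.03, -3.66 and -2.76 in NC and of -4.57, -4.10, -4.15, -4.03 and -4.22 in HC. The HC arrays were alike and the spread lay in NC, where replicate 3 was high and replicate 1 level with the highest HC array. PTGFR fell by 0.73 (SE 0.24), and without NC replicate 3 it was at -0.37 and did not pass. The beta-1 adrenergic receptor ADRB1 had levels of -4.32, -4.41 and -4.11 in NC and of -4.77, -5.30, -4.97, -4.91 and -4.87 in HC. These groups were well apart, and ADRB1 fell by 0.68 (SE 0.19), or by 0.71 without HC replicate 5.

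CPT1A, COL4A3 and AGGF1 fell too, 3 genes of separate roles. CPT1A, which admits long-chain fatty acids to mitochondria, had levels of -0.64, -0.90 and -1.00 in NC and of -1.95, -1.93, -1.30, -1.78 and -1.63 in HC. Its lowest HC arrays were replicates 1 and 2, not 5. CPT1A fell by 0.87 (SE 0.34), by 0.86 at its other probe and by 0.89 without HC replicate 5, and did not pass without NC replicate 1 (-0.77). COL4A3, a chain of the type IV collagen of basement membranes, had levels of -4.21, -4.04 and -4.30 in NC and of -5.56, -6.01, -4.34, -6.41 and -6.44 in HC. HC replicate 3 was level with NC and the other HC arrays lay far below, which made this the widest spread among the lowered genes named here, with an SD of 0.87 in HC against 0.13 in NC. COL4A3 fell by 1.57 (SE 0.53), or 2.96-fold, and by 1.40 without HC replicate 5. AGGF1, an angiogenic factor, had levels of 0.47, 0.44 and 0.47 in NC and of -0.14, -0.36, 0.10, -0.10 and -0.46 in HC. The NC arrays were nearly equal, and AGGF1 fell by 0.66 (SE 0.21), by 0.63 at its other probe and by 0.59 without HC replicate 5.

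Of the other lowered genes, PPP1R12A, EIF4GI and EIF3A are given next. PPP1R12A, the targeting subunit of myosin phosphatase, had levels of -0.90, -0.66 and -0.84 in NC and of -1.33, -1.64, -1.24, -1.73 and -2.18 in HC. It fell by 0.83 (SE 0.22), by 0.81 at its other probe and by 0.69 without HC replicate 5. EIF4GI, a scaffold of translation initiation, had levels of -2.57, -2.70 and -2.85 in NC and of -2.94, -3.30, -3.00, -3.40 and -3.96 in HC. NC replicate 3 and HC replicate 1 almost met. EIF4GI fell by 0.62 (SE 0.26), but its call did not hold without HC replicate 5 (-0.45) or 4 (-0.59), or NC replicate 1 (-0.55) or 2 (-0.61), or with the slide as a block (-0.57). EIF3A, another initiation factor, chosen after its values were seen, fell by 0.57 (SE 0.22), by 0.43 without HC replicate 5, and was at -0.55, short of the criterion, without NC replicate 1.

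Of the 15 lowered genes with the largest differences among those whose groups did not overlap, 14 are described here. The 15 fell by 0.61 to 1.57, with adjusted p from 0.14 to 0.417. HC replicate 5 was the lowest array in 10 of them and 12 passed without it, the exceptions being TGF-A, GRIN1 and EIF4GI. The SD within HC ran from 0.20 for ADRB1 to 0.87 for COL4A3. The remaining 33 lowered genes fell by 0.33 to 0.88, and in 14 of them the groups did not overlap. HC replicate 5 was the lowest HC array in 33 of the 48 lowered genes, and replicate 3 the highest in 19 and replicate 1 in 15. Relative to the NC mean, the median of the 48 genes was -0.50, -0.60, -0.34, -0.63 and -0.82 on the HC arrays. All of these are negative in genes chosen for being lower on the same arrays, and replicate 3 was the nearest to NC. The median SD was 0.31 in HC and 0.18 in NC, and in 38 genes HC had the larger SD. Of 22 lowered genes with a further probe, 21 had all probes in the same direction and 13 had all of them past the criterion. The exception in direction was CTLA4, a brake on T cells, which fell by 0.77 while its other probe stood at 0.49.

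**Figure D2:**
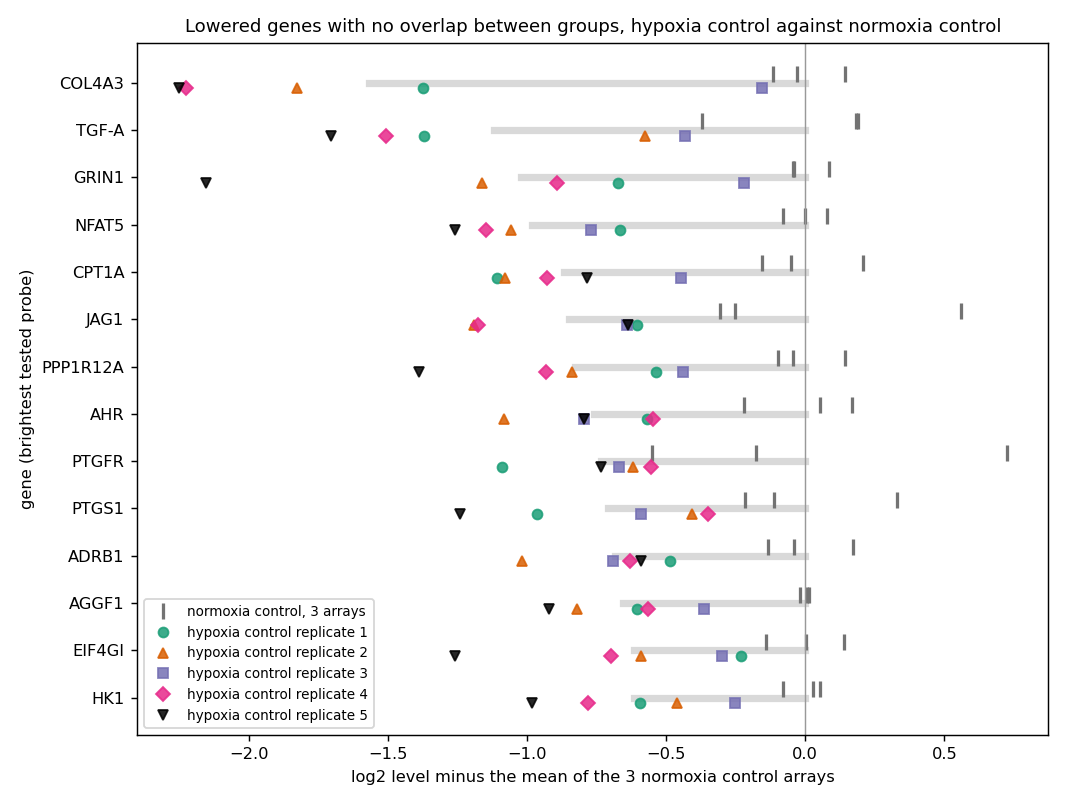
Differences from the NC mean (log2) for 14 of the 15 lowered genes with the largest decrease among those whose groups did not overlap. Points are the 5 HC arrays, ticks the 3 NC arrays and grey bars the HC-NC difference, from -1.57 for COL4A3 to -0.61 for HK1, and HC replicate 5 is the lowest in 9 of the 14 genes.

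Chemokines, adhesion molecules and the receptors of phagocytes were among the genes that rose furthest, and in many of these the HC fetuses differed widely from each other. CXCL10, a chemokine induced by interferon, had levels of -2.64, -1.13 and -3.63 in NC and of 0.36, 4.20, -0.73, 5.34 and 2.00 in HC. All HC arrays were higher, but replicate 3 barely cleared NC replicate 2, and replicates 2 and 4 were above it by several units. CXCL10 rose by 4.70 (SE 1.63), or 26.0-fold, and did not pass without NC replicate 3 (4.12). CXCL8, which attracts neutrophils, had levels of -5.38, -5.63 and -7.13 in NC and of -0.03, -3.20, -4.28, 1.1 and -5.01 in HC. Its HC arrays spread over 6.11 units, a 69.1-fold span, with replicates 1 and 4 high and replicate 5 next to NC. The probe read was well above background on 2 of the 3 NC arrays. CXCL8 rose by 3.76 (SE 1.19), and at its other probe, which was not well above background on any NC array, it was at least 10.9-fold higher. Such bounds set the HC mean against, for each NC array, the higher of the probe's own signal and the lowest signal well above background.

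SELP and ICAM1, 2 adhesion genes of vessels, had replicate 4 highest and replicate 5 lowest in HC. SELP, the P-selectin that platelets and endothelium show to leukocytes, had levels of -4.79, -4.52 and -6.03 in NC and of -0.43, -0.39, -1.34, 1.39 and -4.04 in HC. Replicate 5 stood 14.4-fold below the mean of the other HC arrays, as it did by 10.6-fold for CXCL8. SELP rose by 4.15 (SE 0.98), or 17.8-fold, and at its other probe, where the groups overlapped, by 2.94. ICAM1, which leukocyte integrins bind, had levels of -5.76, -5.62 and -5.30 in NC and of -2.92, -2.16, -3.68, -0.78 and -4.58 in HC. ICAM1 rose by 2.74 (SE 0.69), or 6.67-fold. Without HC replicate 5 the differences were larger for SELP (4.92), CXCL8 (4.44) and ICAM1 (3.18).

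IRF1, TNF and IL1RN were highest in HC replicates 2 and 4. IRF1, a transcription factor of the interferon response, had levels of -3.75, -3.38 and -3.86 in NC and of -1.31, 0.10, -2.05, 0.76 and -1.75 in HC, and rose by 2.81 (SE 0.78). TNF had levels of -6.49, -6.12 and -7.51 in NC and of -5.41, -3.34, -4.55, -3.96 and -5.08 in HC, and rose by 2.24 (SE 0.70). Its probe was well above background on 2 of the 3 NC arrays. IL1RN, which blocks the receptor of interleukin 1, had levels of -7.10, -6.92 and -7.39 in NC, all close to background, and of -5.98, -3.11, -4.56, -4.03 and -5.91 in HC, and was at least 3.94-fold higher. Interleukin 1 beta (IL1B) rose by 1.17 (SE 0.34), with groups that did not overlap.

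CD14, SLC11A1 and CLEC6A, genes of phagocytes, were highest on HC replicate 2. CD14, a coreceptor for bacterial lipopolysaccharide on microglia and macrophages, had levels of -3.57, -3.15 and -3.05 in NC and of -1.43, -0.35, -0.88, -1.12 and -2.65 in HC. It rose by 1.97 (SE 0.45), or 3.92-fold, and by 1.93 at its other probe. SLC11A1, a metal transporter of the phagosome, had levels of -5.56, -5.80 and -4.97 in NC and of -3.45, -0.87, -1.65, -3.62 and -3.57 in HC. Replicates 2 and 3 were high, while replicate 4, the highest for the adhesion genes, was the lowest here, and SLC11A1 rose by 2.81 (SE 0.67) and by 2.10 at its other probe. CLEC6A, a lectin receptor of myeloid cells, had levels of -7.13, -8.52 and -8.30 in NC, not well above background, and of -6.85, -2.82, -4.43, -5.06 and -5.86 in HC. It was at least 3.23-fold higher, and at least 3.58-fold at its other probe, with replicate 2 the highest and replicate 1 near NC.

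Genes of mast cells and of red cell precursors were also among the 15 with the largest measured rise whose groups did not overlap. The mast cell proteinase MCP-3 had levels of -5.16, -5.53 and -4.69 in NC and of -4.58, -1.78, -4.22, -2.39 and -2.30 in HC, with replicates 1 and 3 close to NC. It rose by 2.08 (SE 0.76), and did not pass without NC replicate 2 (1.87). FCER1A, part of the IgE receptor of mast cells, had levels of -9.08, -8.84 and -8.22 in NC and of -6.64, -4.82, -8.05, -7.17 and -6.70 in HC. It was well above background on 3 HC arrays and on none of NC, and was at least 1.01-fold higher. The call of FCER1A ended without HC replicate 2 (1.57) or NC replicate 1 (1.85) or 2 (1.97). AHSP, a chaperone of alpha globin in red cell precursors, had levels of -3.64, -6.04 and -4.89 in NC and of -2.90, -2.16, -2.61, -1.67 and -2.36 in HC, and rose by 2.51 (SE 0.69). For AHSP the HC arrays were close together and the NC arrays were not, and its other probe, at 1.60, did not pass. IGFBP3, which binds insulin-like growth factors, had levels of -4.81, -5.01 and -4.60 in NC and of -3.38, -1.95, -1.19, -2.82 and -4.34 in HC. Replicates 2 and 3 were high and replicate 5 near NC, and IGFBP3 rose by 2.07 (SE 0.56).

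STAR, which carries cholesterol into mitochondria for steroid synthesis, rose evenly. Its levels were -6.94, -7.03 and -7.19 in NC, where no array was well above background, and -5.29, -4.59, -4.40, -5.43 and -5.33 in HC, where all were. The HC arrays spanned 1.03 units, the least among the 15 genes, and STAR was at least 3.16-fold higher. At its second probe (A_70_P039532) the difference of 2.28 (SE 0.29), at least 2.87-fold, had an adjusted p of 0.0139 and was higher on 5 of 5 HC arrays. The other probe past adjustment (A_70_P071831) has no gene name in the files. It fell by 0.85 (SE 0.11) on 5 of 5 HC arrays, with an SD of 0.06 among them. No probe passed adjustment without HC replicate 3 or 4 or NC replicate 1 or 2, with only the NC and HC arrays, with slide and row as blocks, in the authors' table or after normexp.

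The spread among HC fetuses was thus wide for the raised genes, and no single array was the highest or the lowest throughout. The source of the spread was not tested. In these 15 genes the SD within HC ran from 0.47 for AHSP to 2.68 for CXCL8. Replicate 2 was the highest in 7, replicate 4 in 6 and replicate 3 in 2, while replicates 1 and 5 were each the lowest in 5. Over all 70 raised genes the median relative to the NC mean was 0.64, 1.29, 1.01, 1.12 and 0.77 on the HC arrays. Replicate 4 was the highest in 22 of the 70, replicate 2 in 21, replicate 3 in 11, replicate 5 in 10 and replicate 1 in 6, and the lowest array was replicate 1 in 28 and replicate 5 in 22. Replicate 2 was the lowest in 0. The median SD was 0.57 in HC against 0.21 in NC, and HC had the larger SD in 60 of 70 genes, beside 0.33 against 0.20 and 573 of 825 over all named genes (69.5%). All 15 genes passed without HC replicate 5.

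**Figure D3:**
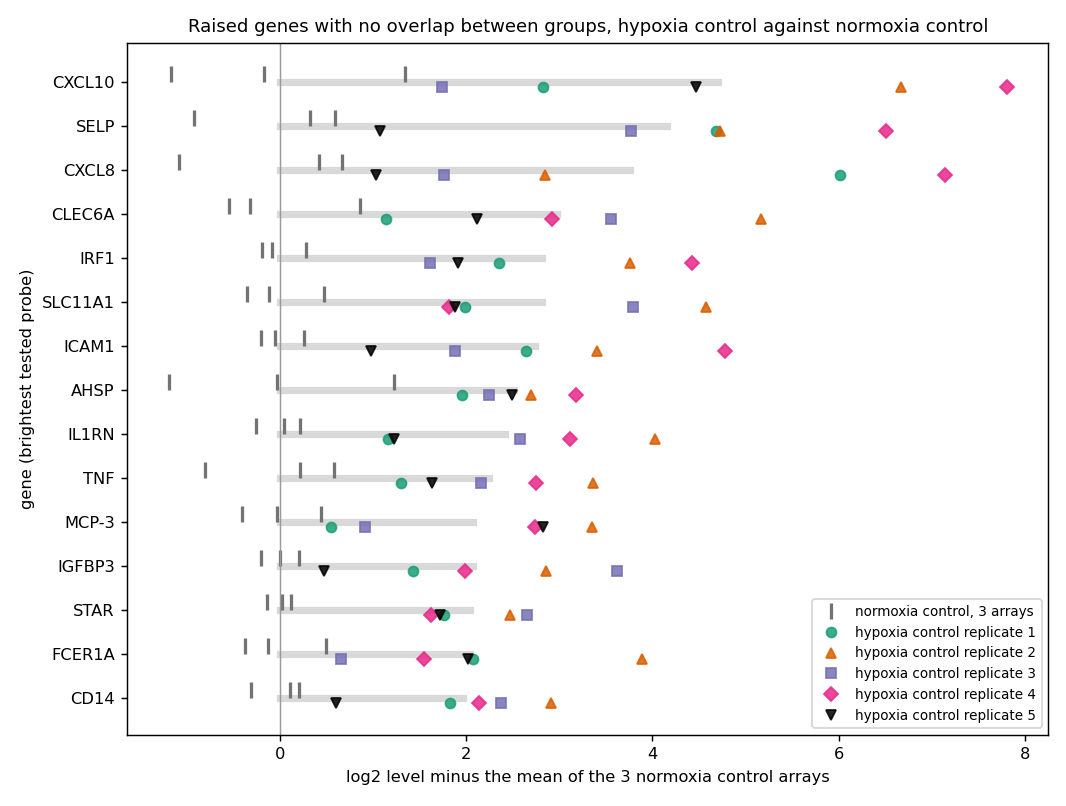
Differences from the NC mean (log2) for the 15 raised genes with the largest increase among those whose groups did not overlap, with points for the 5 HC arrays, ticks for the 3 NC arrays and grey bars for the HC-NC difference. HC arrays span 6.11 units for CXCL8 and 1.03 for STAR, and bars of genes not well above background in NC show the measured difference and not the bound.

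Of the 70 raised genes 44 were in a gene list, and 34 of these in 1 of the 9 immune lists, which are read first. Of the 48 lowered genes 24 were in a list and 3 in an immune one, and of all 825 genes 278 and 107. In the interferon response 5 of 9 tested genes rose and 0 fell, with a median of 1.41, or 1.69 without HC replicate 5. They were IRF1, CXCL10, the immunoproteasome subunit PSMB8 (1.78), the factor IRF2 (0.57) and the antiviral GTPase MX2 (2.09). MX2, chosen after its values were seen, had levels of -0.76, -1.37 and -1.27 in NC and of -1.43, 2.63, 0.50, 4.04 and -0.98 in HC. It was high on replicates 2 and 4 and no higher than NC on replicates 1 and 5, and its call ended without HC replicate 2 (1.67) or 4 (1.31) or NC replicate 1 (2.27), 2 (1.97) or 3 (2.02). Among phagocyte receptors and effectors 7 of 22 rose and 0 fell, with a median of 0.95, or 0.69 at bounds. Besides CLEC6A and SLC11A1 they included CD5 (1.37), a glycoprotein of T cells and some B cells that this list also holds, the oxidase subunit CYBA (0.78) and the Fc receptor genes FCER1G (0.72) and FCGR1A (1.13). FCER1G did not pass without NC replicate 1 (0.66), nor FCGR1A without HC replicate 2 (0.93) or 4 (0.84) or NC replicate 1 (1.02) or 2 (1.03).

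The toll-like receptor pathway had 6 of 12 genes raised and 1 lowered, TRAF3, with a median of 0.46, and 4 raised without HC replicate 5. The receptors TLR2 (1.20) and TLR4 (1.07) rose with CD14 and with NFKBIA (1.30), the inhibitor that NF-kB induces. NFKBIA had levels of 0.65, 0.51 and 0.67 in NC and of 2.40, 2.01, 2.11, 2.47 and 0.58 in HC, so that 4 fetuses were high and replicate 5 was level with NC. Without replicate 5, NFKBIA rose by 1.64. Of 23 cytokines and chemokines 7 rose and 0 fell, with a median of 0.19. Of 12 cytokine receptors 3 rose and 1 fell, with a median of 0.18, namely the interleukin 2 receptor chain IL2RA (1.12), the tumor necrosis factor receptor TNFRSF1A (0.47), the death receptor FAS (1.05) and the decoy receptor TNFRSF11B (-0.77). IL2RA did not pass without NC replicate 3 (1.01) and TNFRSF1A without NC replicate 1 (0.45). FAS did not pass without HC replicate 2 (0.82) or 4 (0.75) or without NC replicate 1 (1.11), 2 (1.05) or 3 (0.99). TNFRSF11B did not pass without HC replicate 1 (-0.74), 2 (-0.55) or 3 (-0.72) or NC replicate 1 (-0.61) or 3 (-0.82).

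In leukocyte adhesion 3 of 11 rose and 0 fell, with a median of 0.30, or 0.11 at bounds, and the integrin chain ITGB1 (0.30) joined SELP and ICAM1. ITGB1 did not pass without NC replicate 1 (0.26) or 3 (0.27). Among inducible regulators 4 of 12 rose, with a median of 0.28, or 6 of 12 and 0.57 without HC replicate 5. These were NFKBIA, the calcineurin inhibitor RCAN1 (0.59), the survival factor MCL1 (0.71) and the transcription factor CEBPB (1.25), which did not pass without NC replicate 1 (1.17). In antigen presentation 2 of 4 rose, PSMB8 and B2M (0.81), the light chain of class I molecules, with a median of 0.66, and B2M did not pass without NC replicate 2 (0.73). Among lymphocyte genes CD5 rose and CTLA4 fell out of 7, with a median of 0.17. The call of CTLA4 ended without HC replicate 4 (-0.55) or NC replicate 1 (-0.34) or 3 (-0.85).

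Outside the immune lists, the list of glutamate and GABA receptors, of which only glutamate receptors could be tested, had the largest share of calls. These glutamate receptors had 5 of 6 lowered and a median of -0.44, or 1 lowered and -0.35 without HC replicate 5. Of the neuronal and synaptic genes 0 of 8 passed, with a median of 0.06, or -0.04 at bounds. Oxygen sensing had 1 raised and 3 lowered of 17, with a median of 0.03. In insulin-like growth factor and insulin signaling (12 genes, median -0.04) IGFBP3 rose while IGF1 (-0.59) and the AMP kinase subunit PRKAA2 (-0.44) fell. Growth factors and receptors (32 genes, median -0.10, or -0.05 at bounds) had FGF2 raised (0.64) and FGFR1 lowered (-0.33). Kinases and second messengers (11 genes, median 0.10) had the angiotensin receptor AGTR1 (1.16) and the natriuretic peptide NPPC (0.86) raised, and ADRB1 and NFAT5 lowered. In nuclear receptors and steroid genes (13 genes, median -0.27, or -0.21 at bounds) STAR and PPARG (0.52) rose and THRB fell.

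Solute carriers and channels (21 genes, median -0.02, or 0.00 at bounds) had SLC2A3, the fructose transporter SLC2A5 (1.01) and the gap junction gene GJA1 (0.46) raised and the bicarbonate transporter SLC4A4 (-0.50) lowered. Energy metabolism (14 genes, median -0.16) had CPT1A and the lipase LPL (-0.73) lowered. Cell death (8 genes, median 0.12) had MCL1 and FAS raised and BAX (-0.36), which permeabilizes mitochondria, lowered. The cell cycle (10 genes, median 0.10) had cyclin D2, CCND2 (-0.73), lowered. Extracellular matrix and proteolysis (14 genes, median 0.04, or -0.01 at bounds) had the urokinase receptor PLAUR (1.15) raised, and the metalloproteinase MMP14 (-0.56) and urokinase itself, PLAU (-0.45), lowered. In heat shock and redox 0 of 5 genes passed, with a median of -0.12, and in complement and coagulation 0 of 7, with a median of -0.10.

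Many of these calls rested on single arrays or probes. At another probe of the same gene FAS (0.88), FCER1G (0.54), FGF2 (0.59), GJA1 (0.49), FGFR1 (-0.30), HOMER (-0.50), PRKAA2 (-0.24) and MMP14 (-0.13 and -0.06) did not pass, while one more probe of MMP14, dim like these, fell by 1.91 (SE 0.76). Among raised genes, NPPC did not pass without NC replicate 2 (0.77), PPARG without NC replicate 2 (0.41), SLC2A5 without NC replicate 1 (0.88) and PLAUR without NC replicate 1 (0.96). The call of FGF2 ended without HC replicate 1 (0.55), 3 (0.58) or 4 (0.61) or NC replicate 1 (0.63) or 2 (0.51), while GJA1 kept its call only when HC replicate 1 or 4 was the array left out. GJA1 stood at 0.47 without HC replicate 2, 0.28 without 3, 0.42 without 5 and at 0.48, 0.45 and 0.45 without NC replicates 1, 2 and 3. Among lowered genes BAX did not pass without NC replicate 1 (-0.27), nor SLC4A4 without NC replicate 1 (-0.50) or 3 (-0.33). IGF1 did not pass without HC replicate 5 (-0.46) or 3 (-0.62) or NC replicate 2 (-0.62) or 3 (-0.40), and PRKAA2 not without HC replicate 2 (-0.42), 4 (-0.43) or 5 (-0.42) or NC replicate 1 (-0.44) or 3 (-0.34). FGFR1 lost its call without HC replicate 2 (-0.31), 4 (-0.33) or 5 (-0.23) or NC replicate 1 (-0.28) or 3 (-0.28). LPL lost it without HC replicate 1 (-0.69), 2 (-0.68) or 5 (-0.49) or NC replicate 2 (-0.48) or 3 (-0.77), and CCND2 without HC replicate 1 (-0.70) or 5 (-0.55) or NC replicate 1 (-0.78) or 3 (-0.53). MMP14 lost it without HC replicate 1 (-0.46) or NC replicate 2 (-0.48) or 3 (-0.48), and PLAU without HC replicate 2 (-0.38) or 4 (-0.32) or NC replicate 2 (-0.50) or 3 (-0.33).

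**Figure D4:**
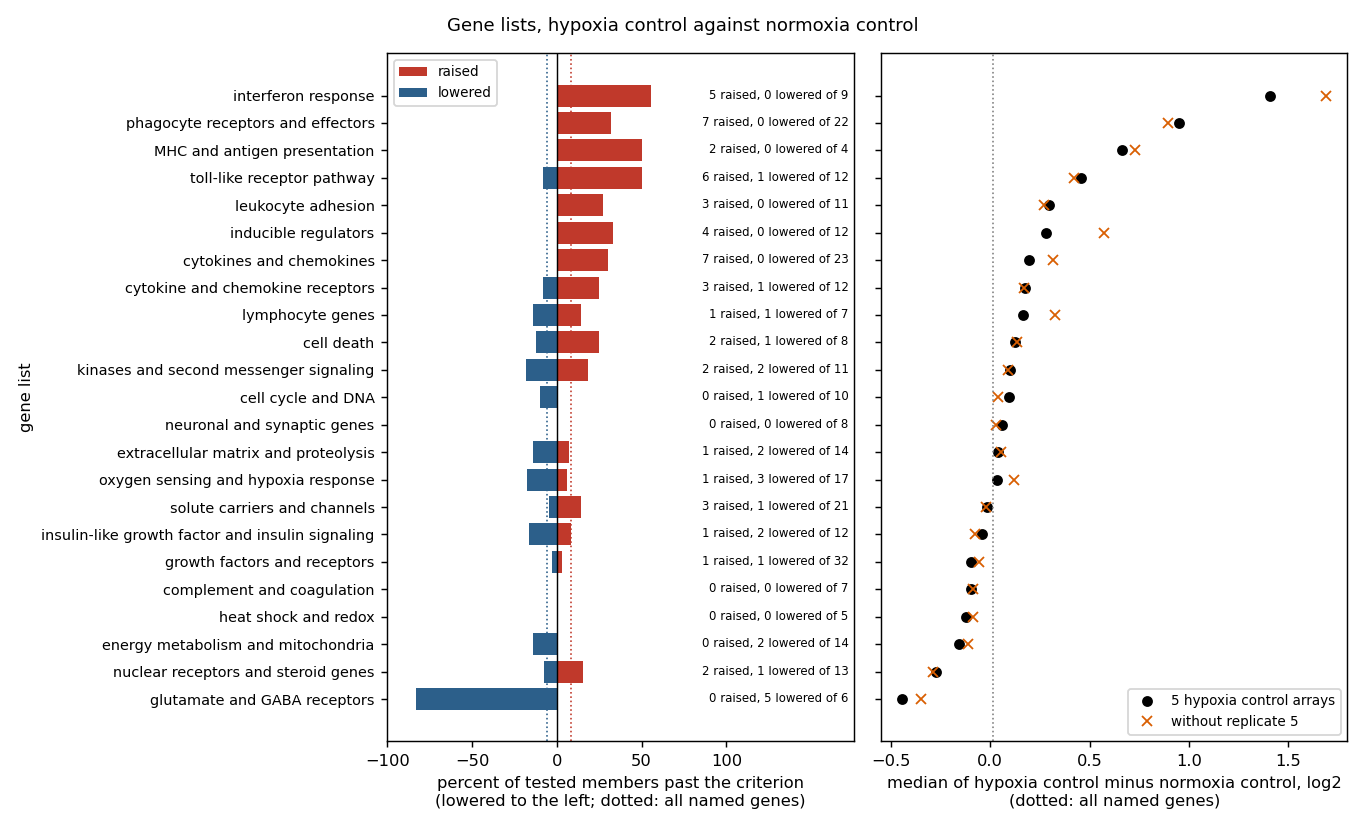
Share of tested genes (percent) raised and lowered at the criterion in each gene list, with the number tested and the median HC-NC difference (log2) at the right. Interferon response (5 of 9 raised) has the highest median, 1.41. The list of glutamate and GABA receptors (5 of 6 lowered, with no GABA receptor tested) has the lowest, -0.44. Over all named genes 8.48% were raised and 5.82% lowered.

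Several further genes, chosen after their values were seen, are of interest for their evenness or their role. PDXK, which activates vitamin B6, rose by 1.62 (SE 0.29), and MTHFD2, an enzyme of mitochondrial folate metabolism, by 1.44 (SE 0.30), each with all HC arrays above NC. VDUP1, also known as thioredoxin interacting protein, rose by 0.85 (SE 0.26) with HC arrays that differed by 0.67 at most. The tryptase gene TPSB2 rose by 1.28 (SE 0.33) and the proteasome activator PSME2 by 0.78 (SE 0.26), with overlap in both. GLUT-1, the glucose transporter of the blood-brain barrier, had levels of 1.06, 1.12 and 1.15 in NC and of 1.88, 1.52, 2.28, 1.22 and 1.15 in HC. Replicates 1 to 3 were high, and replicates 4 and 5 hardly above NC. GLUT-1 rose by 0.50 (SE 0.22), and did not pass without HC replicate 1 (0.43) or 3 (0.33) or NC replicate 1 (0.48), 2 (0.51) or 3 (0.52). Among the lowered genes, the prohormone convertase PC1 fell by 0.69 (SE 0.27), the mitochondrial dehydrogenase GPD2 by 0.88 (SE 0.34) and the guanylate cyclase subunit GUCY1B1 by 0.40 (SE 0.17), with overlapping groups. Without HC replicate 5 the differences of PC1 (-0.57), GPD2 (-0.76) and GUCY1B1 (-0.33) were short of the criterion. So they were for PC1 without NC replicate 2 (-0.51) or 3 (-0.64), for GPD2 without HC replicate 1 (-0.76) or NC replicate 2 (-0.45), and for GUCY1B1 without HC replicate 2 (-0.34) or 4 (-0.36) or NC replicate 1 (-0.41) or 2 (-0.29).

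Markers of other cell types were read for each array. Microglia and macrophages had 6 of 19 markers tested, 3 of them raised (CD14, FCER1G and FCGR1A), with a median of 1.12, or 0.61 at bounds. Their mean level was -5.19, -4.77 and -4.46 in NC and -4.36, -2.71, -3.90, -3.65 and -3.93 in HC, with FCER1G the brightest in both groups. All 5 HC means were above every NC mean, replicate 1 narrowly, but the means include signals of FCGR2B and CYBB near background. AIF1, CSF1R and P2RY12 had no named probe. FCGR2B and CYBB were well above background on 0 NC arrays and 3 HC arrays each and did not pass. Of 17 neutrophil markers LTF (1.47) and CATHL3 (2.46) were tested and did not pass, MMP9 was too dim to test, and MPO, S100A8 and S100A9 had no named probe. Their mean was -4.66, -3.42 and -3.27 in NC and -3.24, -1.22, 0.44, -3.17 and -1.88 in HC, highest on replicate 3, where CATHL3 was the brighter. CATHL1B, another cathelicidin of neutrophils, chosen after its values were seen, had levels of -3.23, -2.49 and -1.55 in NC and of -1.81, 0.97, 3.35, -0.82 and 0.78 in HC. It rose by 2.92 (SE 1.28) with overlapping groups, and its call ended without HC replicate 2 (2.80), 3 (2.21) or 5 (2.85) or NC replicate 1 (2.52) or 2 (2.89). Lymphocytes had CD3D (0.50) and CD3E (0.55) tested of 11 markers, short of the criterion, while the other probe of CD3D rose by 0.91 (SE 0.34), and CD4 was too dim to test, with means of -4.75, -4.47 and -5.18 in NC and -4.98, -3.59, -3.81, -4.44 and -4.55 in HC.

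Among the markers of glia, vessels and coverings GJA1 alone passed at its brightest probe. Of 9 astrocyte markers 3 were tested, with means of 1.58, 1.75 and 1.57 in NC and 1.43, 2.06, 2.52, 1.72 and 2.19 in HC and a median of 0.46. AQP4 was the brightest and stood at 0.07, GFAP stood at 0.52 and GJA1 at 0.46, and HC replicates 2, 3 and 5 had means above every NC array. For oligodendrocytes 0 of 10 markers had a named probe. Endothelium had 5 of 12 markers tested, PECAM1 the brightest, with means of -2.96, -3.21 and -3.21 in NC and -3.17, -3.27, -2.84, -3.66 and -3.23 in HC and a median of 0.08. Of its markers KDR, a receptor of vascular endothelial growth factor, stood at -0.40 with all HC arrays below NC. Its other probes were at -0.90 (SE 0.29), past the criterion, and at -0.46 and -0.23, which did not pass. The choroid plexus and ependyma had 5 of 12, with means of -2.90, -1.00 and -2.19 in NC and -2.73, -1.25, -2.20, -2.65 and -1.56 in HC and a median of -0.10, or 0.00 at bounds. Their brightest gene TTR, the transthyretin of the choroid plexus, varied widely in both groups, at 0.18, 6.41 and 1.97 in NC and -1.43, 5.37, 2.89, 1.74 and 6.28 in HC. Meninges and mesenchyme had 4 of 10, DCN the brightest, with means of -2.78, -2.20 and -2.33 in NC and -2.20, -2.44, -2.85, -2.20 and -2.71 in HC and a median of -0.02. The 1 tested red blood cell marker of 13, HBB, was at 3.93, 3.51 and 3.07 in NC and 3.57, 3.80, 2.58, 4.61 and 5.10 in HC, a difference of 0.43 that did not pass. HBB was at 0.13 without HC replicate 5, and its other probe stood at -0.10. The part of any of these cells in the raised or lowered genes was not tested.

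The same comparison under ketamine, HK against NK, shares no arrays with HC against NC. Its fetuses may be littermates of those in HC and NC, since the paper reports mostly twins and allotted pregnancies, not fetuses, to normoxia or hypoxia. Litters were not part of the fit. Genes chosen in either comparison were nearer 0 at the median in the other, as is expected of such a choice. Under ketamine 44 of 825 genes were raised (5.33%) and 15 lowered (1.82%). These had medians of 0.99 and -0.43 under ketamine and of 0.42 and -0.15 without it. The 70 genes raised without ketamine had a median of 0.43 there, 65 had the same sign and 16 passed in the same direction. Among the 15 with the largest rise and no overlap of groups, 7 passed under ketamine too: CXCL10 (3.72), SELP (2.52), IRF1 (1.75), SLC11A1 (1.57), IL1RN (1.32), IGFBP3 (1.20) and STAR (0.92). The 48 lowered genes had a median of -0.12 there, 35 kept their sign, and FGFR1 (-0.34) alone passed in the same direction. None of the 15 with the largest decrease and no overlap passed, with COL4A3 at -0.62, PTGS1 at -0.36, GRIN1 at -0.28 and HK1, ADRB1 and PTGFR between -0.00 and 0.02. The neutrophil genes CATHL3 (4.42), LTF (1.98) and CATHL1B (3.86) rose under ketamine, beside 2.46, 1.47 and 2.92 without it, where CATHL1B alone passed, and the interaction did not pass for any of the 3.

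The difference between both comparisons was itself tested, by the interaction. It passed the criterion for 31 of 825 genes (3.76%) and for 431 of the 12543 probes tested, and 0 probes passed adjustment in limma. Where nothing differs, a criterion of 0.05 alone lets through a larger share than either. Of the 48 lowered genes 13 were among the 31, and of the 70 raised genes 5, counts that the choice of these genes by HC against NC makes larger. Of the 44 genes raised and 15 lowered under ketamine, 7 and 3 were among them. ARNT, at -0.54 without ketamine, was 0.29 under it, and GRIA4, at -0.35, was 0.31, both past the criterion in opposite directions. So was SLC4A4, at -0.50 and 0.46. The interaction passed for 5 of the 15 genes with the largest decrease and no overlap, NFAT5 (0.25 under ketamine), JAG1 (-0.02), AHR (-0.09), PTGFR (0.02) and ADRB1 (-0.00), and for TRAF3 (-0.01) and THRB (0.11). It did not pass for GRIN1, with -1.02 and -0.28, an interaction of -0.74 (SE 0.56). Among the 15 raised genes of the same kind it passed for STAR alone, at 2.05 and 0.92. No NC array had STAR well above background, so 2.05 is the measured difference, where the bound is at least 3.16-fold. The interaction was not tested at that bound. For each of the 15 genes with the largest decrease and no overlap, the NK mean lay below the NC mean. AHR had means of -4.98 in NC, -5.74 in HC, -5.37 in NK and -5.46 in HK. In the same order ADRB1 had -4.28, -4.96, -4.56 and -4.56, and ARNT -5.63, -6.17, -6.11 and -5.82. A difference near 0 under ketamine thus has NK, not NC, as its base. The choice of lowered genes favors those high in NC, and a part of ketamine in normoxia was not tested.

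**Figure D5:**
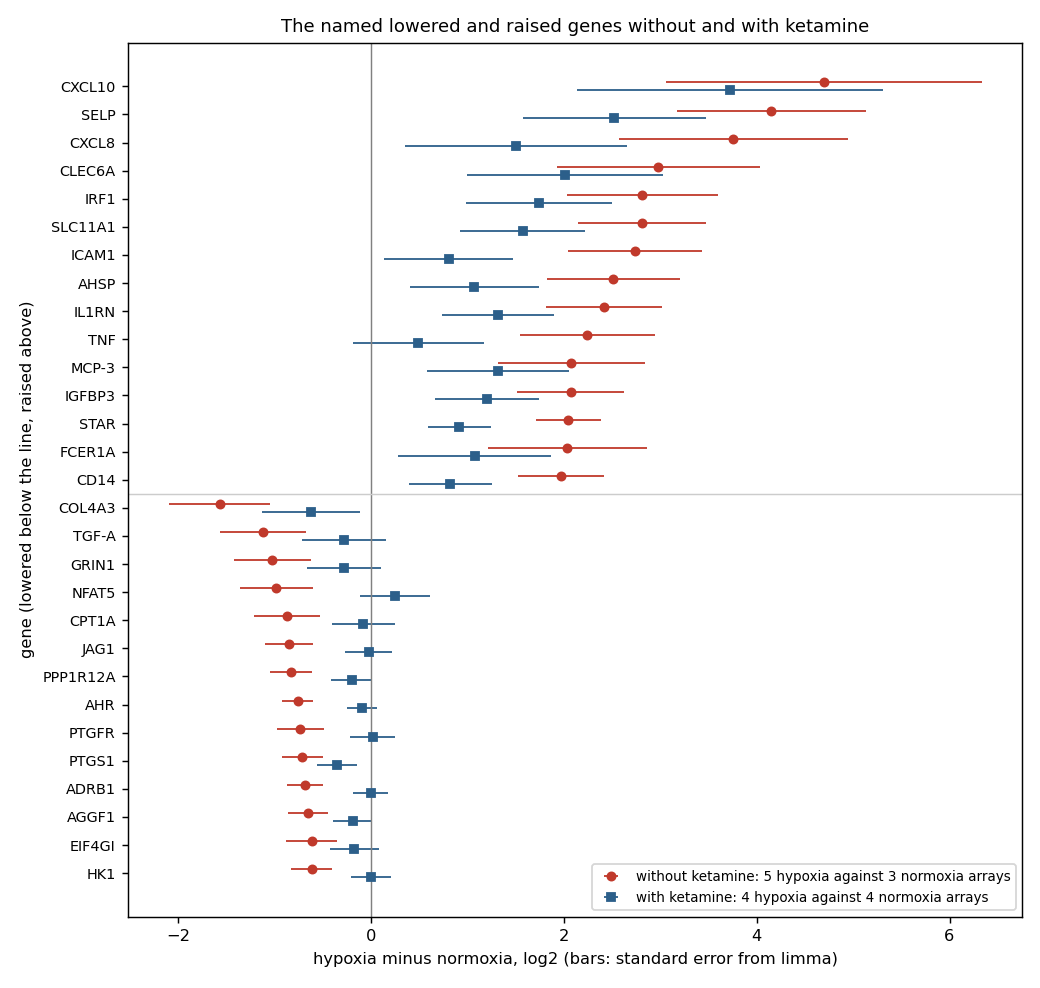
HC-NC and HK-NK differences (log2) side by side for the lowered and raised genes, with error bars of 1 limma SE. CXCL10 (4.70 and 3.72) and SELP (4.15 and 2.52) are up in both, while AHR (-0.76 and -0.09) and ADRB1 (-0.68 and -0.00) are down without ketamine and near 0 with it. For AHR and ADRB1 the mean of NK lay below that of NC, at -5.37 against -4.98 and at -4.56 against -4.28.

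The differences were also read within each slide, for genes called on both slides together, whose signs thus mostly agree. The 70 raised genes had medians of 1.19 on the first slide and 0.81 on the second, and the 48 lowered genes of -0.53 and -0.59. GRIN1 stood at -0.94 and -1.05, AHR at -0.74 and -0.88, HK1 at -0.57 and -0.59, and CPT1A at -1.17 and -0.57. CXCL10 stood at 4.16 and 5.84, SELP at 4.24 and 4.70, and CD14 at 2.47 and 1.50. PTGFR stood at -0.49 and -1.38, and NC replicate 3, its highest NC array, was the only NC array on the second slide.

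The size of many differences and the calls of some genes depended on how values were made. The authors' deposited table raises low signals by an offset and, judging by its values, is quantile normalized, and in it TGF-A (-0.05), NFAT5 (-0.06), JAG1 (-0.03), ARNT (-0.02), GRIA2 (-0.36), GRIA3 (-0.38) and GRIA4 (-0.06) no longer passed, nor did CXCL8 (1.14), CLEC6A (0.16), MCP-3 (0.40) and FCER1A (0.07). Past the criterion there but several times smaller were, among others, COL4A3 (-0.14), AHR (-0.05), ADRB1 (-0.07), EIF4GI (-0.14) and PTGFR (-0.16). The same held among raised genes for STAR (0.13), IL1RN (0.15), SLC11A1 (0.50), ICAM1 (0.58), AHSP (0.53) and SELP (1.58). GRIN1 was at -0.55 there, past the criterion. GRIA2 and GRIA3 are bright and shrank little. After normexp correction CLEC6A (0.41), IL1RN (0.45), TNF (0.54) and FCER1A (0.15) no longer passed, and dim lowered genes shrank, COL4A3 to -0.62, NFAT5 to -0.36, AHR to -0.28 and ADRB1 to -0.31, still past the criterion. That fit left out 30 spots. With normexp on all spots, 24 of 41 lowered results turned to above 0, none of them past the criterion, among them AHR (0.87, SE 0.90), ARNT (0.94, SE 0.93), JAG1 (0.96, SE 0.99), TGF-A (0.91), NFAT5 (0.83), ADRB1 (0.78), COL4A3 (0.55), GRIA4 (0.52), PTGFR (0.45), EIF4GI (0.38), THRB (0.27), TRAF3 (0.10) and the unnamed probe past adjustment (0.26). GRIN1 (-0.32), CPT1A (-0.28) and PPP1R12A (-0.44) stayed below 0 but did not pass, and GRIA1 (-0.59), GRIA2 (-0.56), GRIA3 (-0.50) and CAMK2 (-0.54) passed. The 50 raised results all stayed above 0 and 27 passed, with CXCL10 at 4.16, SELP at 3.16 and CD14 at 1.89, while STAR (1.47), IL1RN (1.64) and TNF (1.64) did not. Brighter genes moved less. AGGF1 and HK1 stayed within 1.5 times their value and past the criterion under every alternative, and so did PTGS1, except that it was at -0.47 with normexp on all spots.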

How the data were processed

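Gene expression in the hippocampus of 16 fetal sheep was measured on 1 one-color Agilent ovine array per fetus, and groups and replicate numbers came from the labels, with 0 value columns unmapped. Per the file headers, the intensity values that the authors deposited for each array came from the Feature Extraction software, which subtracted background, detrended the signal inside each array, put surrogate values in place of signals near background, and did not normalize across arrays. The authors also deposited log2 values, which judging by the values are quantile normalized between arrays, with medians of 8.68 to 8.69 per array and an offset under low signals that the files do not state. The submitters' notes name R 2.15.1 and limma. The members, the gene lists and the rules for naming genes were chosen with earlier results of these data known.

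From the processed intensity, log2 was taken, the 75th percentile over non-control spots of the array was subtracted, spots marked as outliers were left out, and spots of a probe were averaged. Of 15008 probes, 1562 had a gene name (10.4%), 696 by accession and 125 by gene ID in the RefSeq table, 24 by a synonym there, 491 by a symbol and 226 by a name of the array files alone. Testing kept the 12543 probes that exceeded background clearly on 3 or more of the 16 arrays. Levels of 8 arrays limit the precision through their number.

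A linear model of the 4 groups, without covariates, was fitted to all 16 arrays with limma 3.58.1 in R 4.3.3. The two-sided moderated test of this fit was read for HC-NC, for HK-NK and for the interaction, which is their difference, with Benjamini-Hochberg adjustment over the 12543 probes. Its p measures only the spread between these samples. Fetuses were taken as independent, and litters were not modeled. Named genes also had an exact permutation test over the 8 arrays on the difference of means. Tables and figures were made with Python 3.11.15, pandas 2.3.3, numpy 2.4.6 and matplotlib 3.10.9, and the fit was tested on simulated data.

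The genes named were, by their brightest probe, the 15 most lowered and the 15 most raised among genes past the criterion whose groups stood wholly apart, of which 1 lowered gene is left out of text and figures, any probe past an adjusted p of 0.05, up to 4 genes in each direction per gene list by p, and the cell type markers. Others are said to be chosen after their values were seen. The 23 gene lists and 10 marker lists were described by counts and medians, without a set test.

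Alternatives on the values were normexp correction of the background (offset 50), quantile normalization, scaling to the median, the authors' log2 table and averaging the probes of a gene. Alternatives on the probes were to test all of them or only those well above background on every array. In the fit they were blocks for the slide, for slide and row and for the replicate number, NC and HC without the other groups, array weights, a trended and robust prior, and omission of each of the 8 arrays in turn. For normexp, 30 spots on 6 of the 16 arrays, whose local background exceeded their signal by over 100, were left out of its fit, a choice made after seeing the data, and the fit on all spots was kept as an added alternative. Promoter motifs were planned, but no promoter table was at hand.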

Additional observations from a re-analysis of the deposited data

Results flagged for a closer look

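In each of 119 genes named or checked, the 5 HC arrays were searched for 1 array far from the other 4, and 9 genes had one, where chance gives about 1 in 20. In 7 of the 9 it was replicate 5, but SSTR2 and CAMK2 had been added after their values were seen. Over all 825 named genes, whatever their call, 51 had a lone HC array, which was replicate 5 in 25 and another in 3 to 9 each. NEUROD1 was at -5.91 there and between 1.1 and 1.70 on the others, SST at 1.86 against 4.20 to 5.04, SSTR2 at -1.39 against 0.74 to 1.12 and CAMK2 at -1.21 against 0.15 to 0.63. GRIA2 was at 1.35 against 1.94 to 2.06, NFKBIA at 0.58 against 2.01 to 2.47 and IGF1 at -4.95 against -4.29 to -4.19. In the other 2 genes it was replicate 4, with CTLA4 at -7.46 against -6.50 to -6.23 and CLDN3 at -2.41 against -1.25 to -0.93. The cause was not tested.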

How the results depend on the processing

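The 50 raised and 41 lowered results followed were genes and the probes past adjustment, and the 41 include the lowered gene left out of the text. All kept their direction under each of the 21 alternatives that gave them a value, which do not include normexp on all spots. Past the criterion under all of these alternatives were 23 raised and 8 lowered, namely ADRB1, AGGF1, AHR, HK1, PPP1R12A, PTGS1, TRAF3 and the probe A_70_P071831. With normexp on all spots, 27 raised and 10 lowered passed, 24 lowered turned to above 0, none past the criterion, and of these 8 only AGGF1, HK1 and PTGS1 passed. Among the 21 alternatives, fewest passed without NC replicate 1 (36 raised, 21 lowered). The counts were 38 and 24 with the authors' values, and 48 and 25 without HC replicate 5. They were 43 and 30 with only the NC and HC arrays, where GRIA1, GRIA3 and CAMK2 were among those lost. With blocks they were 46 and 35 for the slide, and 46 and 33 for slide and row.

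Of the counts over all probes (570 raised, 786 lowered, 2 past adjustment), normexp gave 1257 lowered. It moved the median difference of all probes from -0.03 to -0.07, and that of the dimmest probes to -0.15. With its fit on all spots, 311 were raised and 274 lowered. Leaving out 1 array gave 412 to 716 raised, 544 to 917 lowered and 0 to 41 past adjustment. The count past adjustment was 149 with array weights, 15 with the replicate block, 1 with probes well above background on all arrays, and 0 with the authors' values, normexp, normexp on all spots, only the NC and HC arrays, or slide and row blocks. The cause was not tested.

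Blocking on the replicate number gave 665 raised probes, 896 lowered and 15 past adjustment. Of the results followed, 47 of 50 raised and 29 of 41 lowered passed. COL4A3 (-1.24), NFAT5 (-0.80), EIF4GI (-0.36) and GRIA1 (-0.42) were among those whose call ended. Whether the numbers pair fetuses is not known, since they were checked only between NC and HC. There, deviations of arrays with the same number from their group means correlated over probes at 0.08, 0.13 and 0.04. NC replicate 3 went better with HC replicate 4 (0.06). The paper allotted pregnancies to normoxia or hypoxia, so littermates would lie within NC and NK or within HC and HK. Such pairs were not tested. Genes are not independent replicates.

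The first limit is the signal of probes over background, since the differences of genes with levels near -5 and below depend on how background is treated. With normexp on all spots some brighter genes depended on it too, such as TRAF3 (0.10), GRIA4 (0.52) and GRIN1 (-0.32). The other limit is the number of arrays, 3 of NC, where leaving out 1 ended many calls.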
